A study of Mus musculus with 4 samples.

Results

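The subject here is how far the response of glomerular RNA samples to aldosterone and salt depended on genotype in mice. It is given for each gene as the ALDO effect in GC-A knockout (KO) mice minus the ALDO effect in wild-type (WT) mice. An ALDO effect is the log2 of the array intensity plus 16 under aldosterone and salt, minus the same value in the control of that genotype, so a value of 1 is 2-fold. Each gene was read from the brightest of its probe sets that carry 1 gene symbol, and the brighter 50% by mean over the arrays were counted, which gave 9097 of 18193 genes (at or above a mean of 8.04 on the log2 scale, or about 247 in intensity). Glomerular RNA from male mice was read on 4 arrays, 1 for each combination of genotype (WT or GC-A KO) and treatment (control or ALDO). Intensities are given in pairs, control before ALDO, for WT and then for KO. Every mouse had lost 1 kidney to surgery. Controls received 2% ethanol by continuous subcutaneous delivery and a normal diet, and ALDO mice received aldosterone and a 6% salt diet for 3 weeks. The KO was systemic, not limited to the kidney. The sources used here do not give the strain, the age or the number of mice behind an array. With 1 array per group, no difference below has a replicate check, and no p-value was computed. Where a single array sets a difference, it is named.

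GC-A, encoded by Npr1, is the receptor for the atrial and B-type natriuretic peptides. It makes cyclic GMP, which relaxes vessels and mesangial cells, promotes sodium excretion and opposes renin and aldosterone. Aldosterone acts through the mineralocorticoid receptor, and together with a high salt load and a reduced kidney mass it is a standard way to injure glomeruli in mice, where podocytes, endothelium and mesangial cells form the filter.

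In 84 genes the ALDO effect differed by 2-fold or more between genotypes, which is 0.923% of the genes counted. In 54 the effect was higher in KO (0.594% of all counted) and in 30 it was lower (0.33%). The median difference was 0.00 and the SD over genes 0.297, somewhat wider than the SD of the ALDO effect in WT (0.266) or in KO (0.279). The difference lay within 0.25 in 69.5% of genes and within 0.5 in 91.5%. ALDO effects in the 2 genotypes share no array, and over all 9097 genes (no independent replicates) they correlated with Pearson's r of 0.405 and Spearman's rho of 0.351. The endothelin B receptor Ednrb, which clears endothelin and drives nitric oxide release, shows what an equal response looks like. Its intensity was 557 (control) and 1799 (ALDO) in WT and 540 and 1737 in KO, so the effect was 1.66 in both genotypes and the difference -0.01 (Ednrb was chosen after its values were seen).

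**Figure D1:**
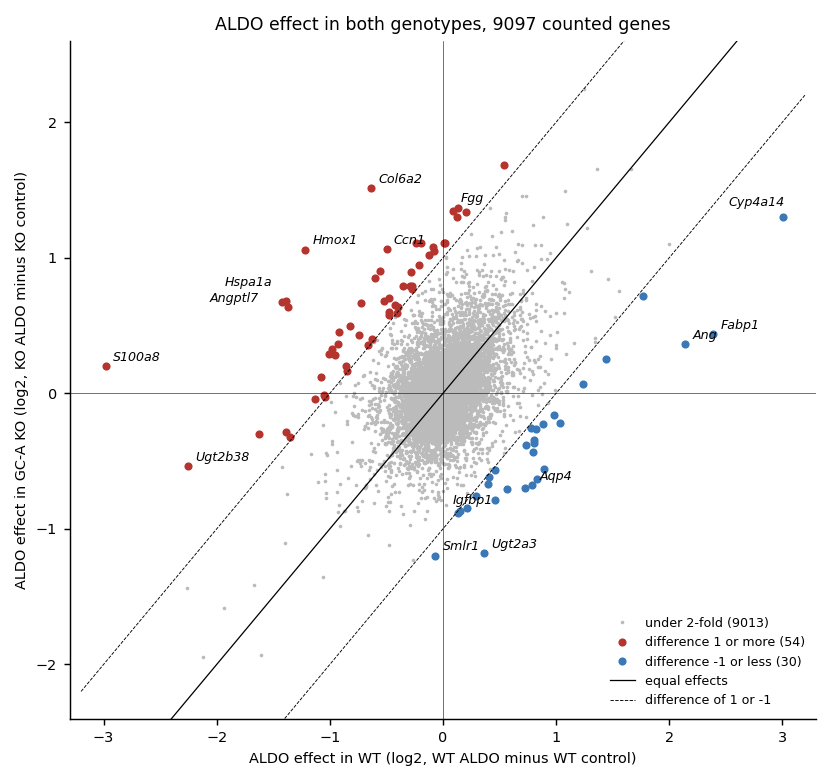
ALDO effect in WT (x axis, log2) against the ALDO effect in GC-A KO (y axis, log2) for 9097 genes; red points differ by 1 or more, blue points by -1 or less, and the solid line marks equal effects. Most points lie between the dashed lines, 54 genes lie above them and 30 below, with S100a8 far to the left and Fabp1 and Cyp4a14 far to the right.

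Dimmer genes differed more often. Within the counted genes, the dimmest 25% held 39 of the 84 and the brightest 25% held 10, with SDs of 0.372 and 0.23. Among the 9096 genes below the intensity limit, 1920 (21.1%) passed 2-fold, and 27 of the 84 had an intensity under the limit on at least 1 array. A further probe set in the brighter 50% existed for 18 of the 84: its difference had the same sign in 13, and in 2, Hspa1b and Hspb1, it also passed 2-fold. Probe sets read the same RNA and are no replicates.

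The arrays had been scaled by the authors to a common trimmed mean, and their median intensities ranged from 89.5 to 103. The ratio of 3' to 5' beta-actin signal was 1.86 in control and 1.87 under ALDO in WT, and 1.67 and 1.61 in KO, so it followed genotype more than treatment. For 18 probe sets of spiked-in control RNA the median difference was 0.13, from -0.08 to 0.35, with 17 above 0, and none reached 2-fold. Podocyte markers were present on every array: Nphs1, which encodes nephrin of the slit diaphragm, had intensities of 1752 and 1717 in WT and 1675 and 1899 in KO. Proximal tubule genes were bright too, with 23 of 24 listed markers counted, so RNA of tubule cells was part of these glomerular samples. In WT control, intensities summed to 483400 over the 23 proximal tubule markers and to 60760 over 22 podocyte markers. Those of 22 loop of Henle, distal nephron and collecting duct markers summed to 102700. Such sums do not give shares of cells, and a difference below need not come from glomerular cells. In such bulk RNA, fewer cells of a type and less RNA per cell cannot be told apart. Npr1 itself was below the limit on all arrays, with intensities of 92.6 (control) and 60.5 (ALDO) in WT and 108 and 23.4 in KO. The sources used here do not say where its probes lie relative to the deleted part, so they do not check the genotype labels.

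A 2-fold difference between effects can come from a single array. For each gene the array farthest from its neighbour was found, and it was said to stand alone where that gap was at least the range of the other 3 arrays. By this rule a single array carried 48 of the 84 differences (57.1%, against 49.7% of all counted genes), and the other 36 rested on at least a pair of arrays. The KO ALDO array was the highest and alone in 15 genes (9.93% of all counted genes) and the lowest and alone in 2 (10.3%). WT control was the highest in 9 (5.8%) and the lowest in 7 (5.55%). WT ALDO was the highest in 4 (5.17%) and the lowest in 5 (5.06%), and KO control was the highest in 3 (3.56%) and the lowest in 3 (4.34%). Counted on either side, KO ALDO carried 17 of the 84, the same 20.2% as among all counted genes, and WT control carried 16, or 19% against 11.4% of all counted genes. Where a control array stood alone, the genotypes differed without aldosterone as well.

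**Figure D2:**
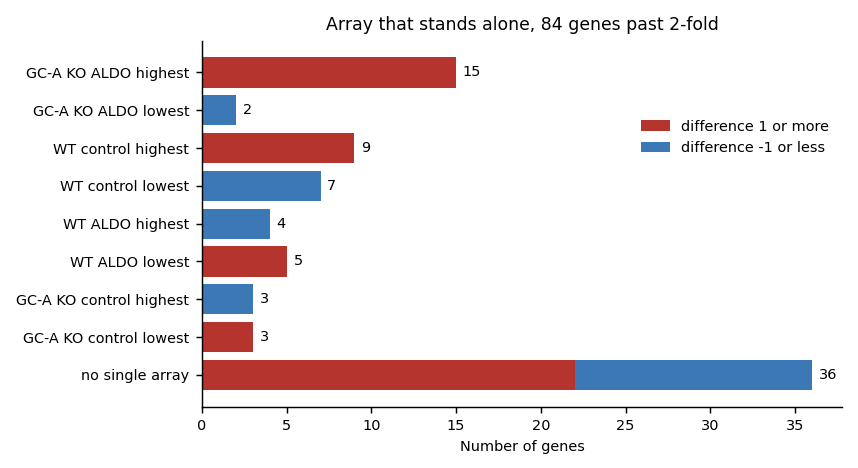
Number of genes past 2-fold (x axis) by the array that stands alone as highest or lowest (y axis); red, difference of 1 or more; blue, difference of -1 or less. The longest bar of a single array is KO ALDO highest with 15 genes, and 36 genes have no single array. Where an array stands alone, the rule itself fixes the direction of the difference, so each such bar has 1 colour.

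By the sizes of both effects, 34 of the 84 genes had an effect of 0.5 or more in KO and under 0.5 in WT (24 higher, 10 lower). In 32 it was the reverse, a response in WT and less than 0.5 in KO (19 higher, 13 lower). The effects had opposite signs, each 0.5 or more in size, in 14 genes. In 4 genes, Ugt2b38, Cyp4a14, Kynu and Rdh16f2, both effects had the same sign and differed in size. Over all counted genes the KO response pattern held 512 (5.63%) and the WT response pattern 321 (3.53%). Opposite signs held 14 (0.154%), all past 2-fold by definition, and the same sign 169 (1.86%).

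Extracellular matrix and contractile genes were among those with a higher ALDO effect in KO, mostly through the KO ALDO array. In the list for fibrosis and interstitial matrix, 26 of 30 counted members had a higher ALDO effect in KO, against 50.6% of all counted genes, with a median difference of 0.28 and median effects of 0.41 in WT and 0.70 in KO. KO ALDO was the highest array and stood alone in 16 of the 30, against 9.93% of all counted genes. Only 2 members passed 2-fold, Col6a2 and Tnc.

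Col6a2 encodes a chain of type VI collagen, which links interstitial matrix to basement membranes. Its intensity was 352 in control and 220 under ALDO in WT, and 267 and 793 in KO. The KO ALDO array stood above the others, and the effect was -0.64 in WT and 1.51 in KO (difference 2.15). A second probe set gave 0.58 with the same farthest array. Tnc encodes tenascin C, a matrix glycoprotein of wounds and fibrosis, and measured 193 (control) and 155 (ALDO) in WT and 350 and 665 in KO. Both KO arrays were above both WT arrays, and the difference was 1.18. The genes next in that list were Fn1 (fibronectin) at 0.96, Col14a1 at 0.76, Col1a2 at 0.71 and Acta2 (smooth muscle actin) at 0.68, named after their values were seen. Fn1 measured 511 and 685 in WT and 757 and 1980 in KO. Its effect was positive in both genotypes, 0.41 in WT and 1.37 in KO. Not all matrix genes took part: Col3a1 (type III collagen) had effects of 0.71 and 0.76, and the growth factor Ccn2 had 0.53 in both. Col3a1 and Ccn2 were named after their values were seen. Dcn (decorin), with -0.58, and the collagenase Mmp2, with -0.50, had lower effects in KO.

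Smooth muscle and pericyte genes were among those with KO ALDO on top. Of 12 counted smooth muscle and pericyte markers 10 were above 0, with a median of 0.18 (0.40 with all probe sets averaged). KO ALDO stood alone as the highest in 7, against 9.93% of all counted genes. Cspg4 (the pericyte proteoglycan NG2) measured 352 in control and 354 under ALDO in WT, and 311 and 688 in KO. The other 3 arrays were close together, the difference was 1.10, and a second probe set gave 0.86. Tagln (transgelin of the actin cytoskeleton) had effects of 0.73 in WT and 1.45 in KO. Myh11, the smooth muscle myosin, ran the other way, with 1.55 in WT, 0.76 in KO and a difference of -0.80. Vim (vimentin, a filament of mesenchymal and injured epithelial cells) measured 3533 and 3607 in WT and 4288 and 8566 in KO, a difference of 0.97. Summed intensities of the 12 smooth muscle markers were 17740 (control) and 24100 (ALDO) in WT and 21020 and 35040 in KO, and those of 8 fibroblast markers were 11090 and 15520 in WT and 14720 and 24690 in KO. Some of these markers, among them Acta2, Dcn, Col1a2 and Col3a1, are also in the fibrosis list, so the sums are not separate from it. The part that the share of these cells has in the matrix values was not tested.

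**Figure D3:**
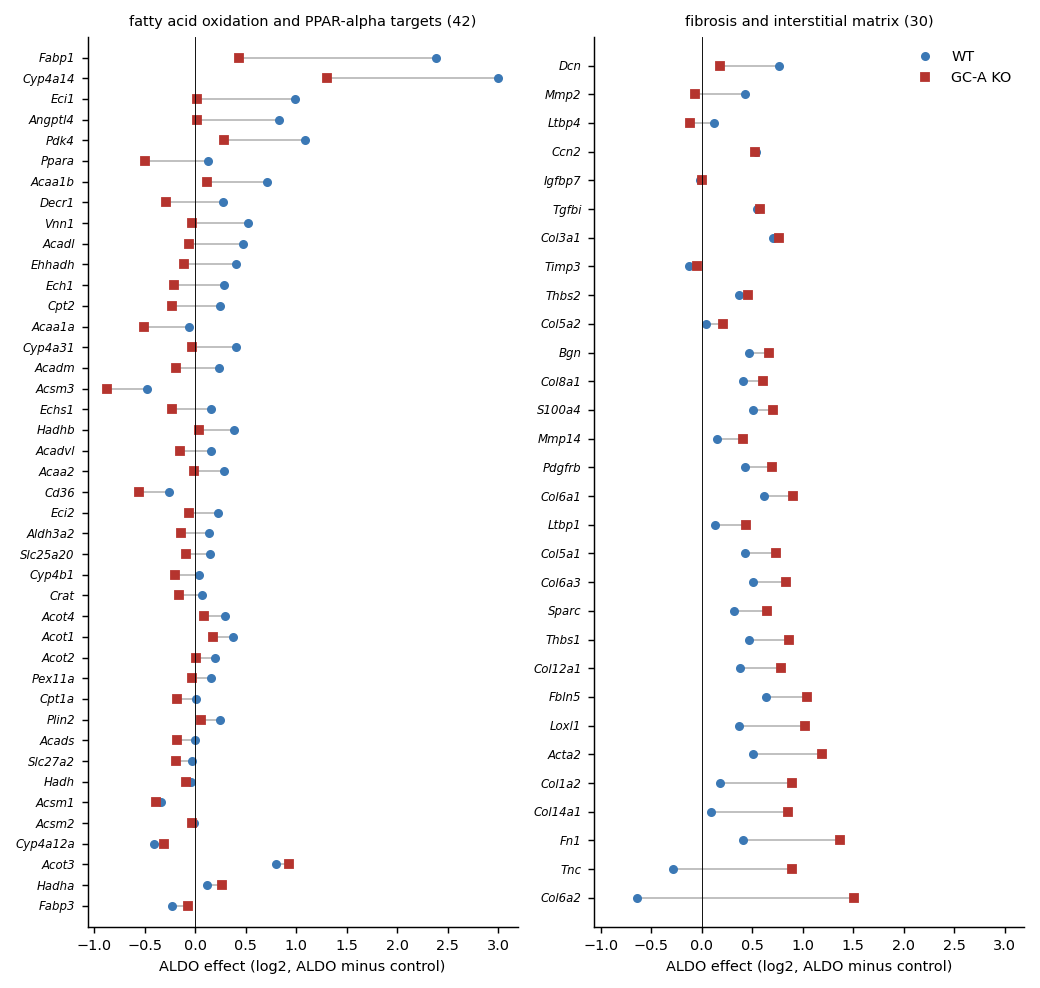
ALDO effect (x axis, log2) in WT (circles) and GC-A KO (squares) for each counted member (y axis) of the fatty acid list (left, 42 genes) and the fibrosis list (right, 30 genes), ordered by their difference. On the left the WT circle lies to the right in 38 genes, and on the right the KO square lies to the right in 26.

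Growth factor and stress-responsive early genes showed the same arrangement of arrays. In the immediate early list 18 of 24 counted members were above 0, and the median difference was 0.24. KO ALDO stood alone as the highest in 10, against 9.93% of all counted genes. The median was 0.08 in the brightest 25% of genes and 0.56 in the next brightest probe sets. All 24 had a positive effect in KO and 18 in WT. Ccn1 encodes a matricellular protein of the CCN family that responds to stretch and YAP signalling. Its intensity was 838 in control and 588 under ALDO in WT, and 846 and 1782 in KO. The controls were level, WT ALDO lay below them and KO ALDO above, and the difference was 1.56. A second probe set gave 0.86, where WT ALDO was the farthest array. Egr1, a zinc finger factor of the early response, had effects of 0.43 in WT and 1.16 in KO. Fos, which encodes a subunit of AP-1, went against the list with a difference of -0.37, named after its value was seen. Smad6, an inhibitor of BMP signalling, measured 1583 and 1487 in WT and 1498 and 3174 in KO. The other arrays were close together, and the difference was 1.16 (also named after its value was seen). Phlda3, a p53 target that restrains AKT, had 403 and 285 in WT and 448 and 740 in KO and a difference of 1.18, while the p53 target list as a whole had a median of -0.01.

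Acute phase genes were higher in KO already in the controls and the gap between genotypes was wider under ALDO, with KO minus WT medians of 0.59 and 0.76. Of 21 counted members of the acute phase and IL-6 list 15 were above 0, with a median difference of 0.26. At 1 or more were 4, against 0.594% of all counted genes: S100a8, Socs3, Fgg and Fga. In the next brightest probe sets, where a gene had one, the list's median was -0.16. KO ALDO was the highest and alone in 8 of the 21, against 9.93% of all counted genes. Fgg and Fga encode the gamma and alpha chains of fibrinogen, the clotting protein made by liver and, after injury, by kidney tubules. Fgg measured 676 (control) and 721 (ALDO) in WT and 1994 and 5082 in KO. Both KO arrays were above both WT arrays, and the effects were 0.09 in WT and 1.34 in KO (difference 1.25). Fga had 742 and 812 in WT and 1176 and 3064 in KO. The KO ALDO array stood alone there, and the difference was 1.24. Fgb, which encodes the beta chain, was dim on 3 of the arrays (61.3 and 140 in WT and 119 and 742 in KO). It was below the limit by its mean, had a difference of 1.47 and was named after its value was seen.

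Socs3 encodes the feedback inhibitor of IL-6 receptor signalling and is itself a STAT3 target. Its brightest probe set measured 215 in control and 180 under ALDO in WT, and 558 and 1222 in KO, a difference of 1.35 with both KO arrays on top. A second Socs3 probe set gave -0.25 and another, dimmer one gave 1.14, so its probe sets did not share a sign. Lcn2 (lipocalin 2, a marker of tubular damage) ran the opposite way to fibrinogen. It measured 76.5 (control) and 218 (ALDO) in WT and 1497 and 1950 in KO. The KO was far above WT under both treatments, and since WT had the larger ALDO effect from a low level (1.34 against 0.38) the difference was -0.96. Lists for tubular injury (median 0.01, 13 of 22 above 0) and complement (0.01, 7 of 12) were near the median of all genes, although their KO minus WT medians in the controls were 0.58 and 0.30.

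Sequence before the start of 2 of these genes holds the palindrome TTCNNNGAA, to which STAT factors bind. Socs3 and Fga are shown because their RefSeq promoter windows (GRCm38.p6, 250 bases before to 50 after the start) contain a match, in capitals. The stretches are chr11:117969467-117969566, minus strand, and chr3:83025903-83026002, plus strand.
Socs3: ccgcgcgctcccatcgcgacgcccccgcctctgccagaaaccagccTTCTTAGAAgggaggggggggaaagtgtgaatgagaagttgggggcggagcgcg
Fga: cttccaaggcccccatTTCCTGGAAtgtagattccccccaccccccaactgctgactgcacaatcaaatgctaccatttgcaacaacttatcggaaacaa
On either strand, 8.3% of 32851 windows contain it. In the acute phase list 4 of 19 counted genes with a window do (Fga, Ifitm3, Socs3 and Tnfrsf1a), against 7.72% of 7461 counted genes. A match describes letters and is neither a site nor a cause.

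Heat shock genes split between arrays. Of 23 counted members of the heat shock list 17 were above 0 and the median difference was 0.30, with median effects of -0.12 in WT and 0.11 in KO. The members past 2-fold were Hspa1a, Hspa1b and Hspb1. Hspa1a and Hspa1b encode the stress-inducible HSP70 chaperone from neighbouring, nearly identical genes, so reads of either transcript by these probes are uncertain. Hspa1b measured 8546 in control and 3291 under ALDO in WT, and 3014 and 4694 in KO. The WT control array was the highest and stood alone, and the effects were -1.37 in WT and 0.64 in KO (difference 2.01). Hspa1a had 1784 and 671 in WT and 656 and 1062 in KO, with a difference of 2.07. The next brightest Hspa1b probe set gave 1.87 with the same array farthest.

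Hspb1, the small heat shock protein HSP27 that protects actin filaments, had another arrangement. It measured 1542 (control) and 1347 (ALDO) in WT and 1343 and 2916 in KO. Here KO ALDO stood alone, the difference was 1.30, and the second probe set gave 1.40. Hspb8, a partner of HSP27, also had KO ALDO alone on top, with a difference of 0.91 (named after its value was seen). Mitochondrial chaperones were on the other side of 0, with Hspa9 at -0.26 and Hspd1 at -0.23, also named after their values were seen.

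The promoter windows of the 3 genes past 2-fold each contain the inverted pair GAANNTTC, the core of the element bound by heat shock factor 1, in capitals below. The 100 bases shown are the same in Hspa1a (chr17:34972207-34972306) and Hspa1b (chr17:34959289-34959388), both minus strand, and of the 250 bases before the start 247 are identical. The Hspb1 stretch is chr5:135887766-135887865, plus strand, with 2 matches.
Hspa1a and Hspa1b: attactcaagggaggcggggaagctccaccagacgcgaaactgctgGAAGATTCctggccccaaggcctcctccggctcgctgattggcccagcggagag
Hspb1: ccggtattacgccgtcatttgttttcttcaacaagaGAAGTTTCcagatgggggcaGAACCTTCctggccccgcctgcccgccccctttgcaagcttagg
The pair occurs in 7.86% of all RefSeq windows and in 12 of 19 heat shock genes with a window, against 6.86% of counted genes. Here too a match is a description of letters.

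Folding genes of the endoplasmic reticulum had a similar shape in smaller steps, with WT control on top. In that list 23 of 26 counted members were above 0, the median was 0.21, and WT control stood alone as the highest in 11, against 5.8% of all counted genes. Manf and Sdf2l1, a secreted survival factor and a cofactor of the chaperone BiP, were the members at 1 or more. Manf measured 4571 in control and 2529 under ALDO in WT, and 3637 and 4066 in KO. Its lowest array, WT ALDO, stood alone, and the effects were -0.85 in WT and 0.16 in KO. Sdf2l1 had 875 and 548 in WT and 632 and 815 in KO, a difference of 1.02 with WT control and KO ALDO above the other arrays. The cell death factor Ddit3 (CHOP) followed at 0.96 and BiP itself, Hspa5, at 0.44, both named after their values were seen.

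Hmox1, which encodes the inducible haem oxygenase that breaks haem down to biliverdin, iron and carbon monoxide, had effects of opposite sign in the genotypes. Its intensity was 632 (control) and 262 (ALDO) in WT and 286 and 612 in KO. WT control and KO ALDO were level and above the other arrays, so the effects were -1.22 in WT and 1.06 in KO, a difference of 2.28. This arrangement, WT control and KO ALDO above the others, was found in 10 of the 36 genes without a single array. The reverse, KO control and WT ALDO on top, was found in 5. By definition the first arrangement gives a positive difference and the second a negative one. The share of all counted genes with either is not given here. The remaining antioxidant genes did not follow Hmox1: the 20 counted members had a median of -0.03, and the next highest member was at 0.21.

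**Figure D4:**
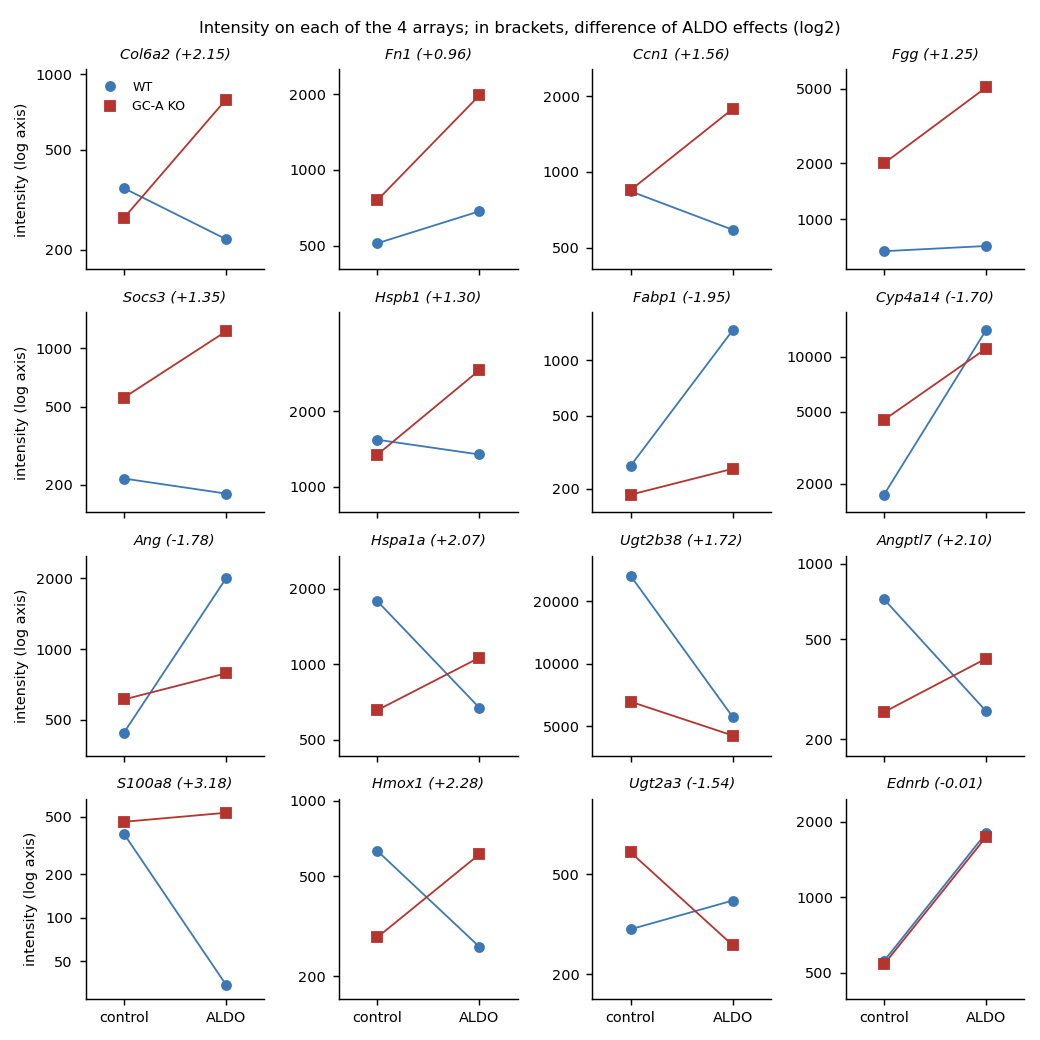
Intensity (y axis, log scale) in control and ALDO (x axis) on each of the 4 arrays for 16 genes; circles, WT; squares, GC-A KO; in brackets, the difference of ALDO effects (log2). Lines cross in Hmox1, Hspa1a, Angptl7, Col6a2, Hspb1, Cyp4a14, Ang and Ugt2a3. WT ALDO stands alone above in Fabp1 and Ang and below in S100a8, and both lines coincide in Ednrb.

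Fatty acid oxidation was the list with the lowest median. These genes are targets of the lipid-sensing receptor PPAR-alpha and in kidney are mainly active in proximal tubule. Of 42 counted members 38 had a lower ALDO effect in KO (4 were above 0, against 50.6% of all counted genes), and the median difference was -0.30, from median effects of 0.21 in WT and -0.08 in KO. The WT ALDO array was the highest and alone in 15 of the 42, against 5.17% of all counted genes. In the controls the KO minus WT median was -0.09, and under ALDO it was -0.44. Fabp1 and Cyp4a14 were at -1 or less.

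Fabp1 encodes the liver-type fatty acid binding protein, a lipid carrier of proximal tubule. Its intensity was 266 in control and 1461 under ALDO in WT, and 186 and 257 in KO. WT ALDO stood far above the other arrays, and the effects were 2.39 in WT and 0.44 in KO (difference -1.95). A dimmer probe set gave -2.04 with the same array on top. Cyp4a14, a fatty acid omega-hydroxylase and one of the most inducible PPAR-alpha targets, measured 1740 (control) and 14048 (ALDO) in WT and 4498 and 11113 in KO. Both ALDO arrays were above both controls, and the smaller effect in KO (1.30 against 3.00) came with a KO control above the WT control rather than with a lower end level alone. Next came Eci1, an isomerase of beta-oxidation, at -0.97, the lipase inhibitor Angptl4 at -0.81, Pdk4, which shuts carbohydrate out of the Krebs cycle, at -0.80, and Ppara itself at -0.63, all named after their values were seen. Eci1, Angptl4 and Pdk4 had WT ALDO alone on top, while Ppara had KO ALDO alone at the bottom.

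Fabp1 is shown because its window contains the PPAR element AGGNCANAGGNCA, a direct repeat with 1 base between, here on the opposite strand and therefore in capitals as its complement (chr6:71199768-71199867, plus strand, GRCm38.p6).
Fabp1: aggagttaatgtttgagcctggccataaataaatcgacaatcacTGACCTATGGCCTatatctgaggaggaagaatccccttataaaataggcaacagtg
It occurs in 0.381% of windows, in 1 of 34 genes of the fatty acid list with a window and in 0.295% of counted genes.

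Summed intensities of the 42 fatty acid genes were 312600 in control and 363100 under ALDO in WT, and 301000 and 284200 in KO. Those of 23 proximal tubule markers were 483400 and 463500 in WT and 458600 and 423900 in KO. The markers' median difference was -0.02 with 10 above 0. KO ALDO was the lowest and alone in 6 of the 23 markers and in 7 of the 42 fatty acid genes, against 10.3% of all counted genes. The part of tubule content in the fatty acid values was not tested. Oxidative phosphorylation genes had 25 of 27 below 0 in small steps, a median of -0.09 and none beyond -0.25. Their KO ALDO array was the lowest and alone in 14, against 10.3% of all counted genes.

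Other metabolic lists leaned the same way as fatty acid oxidation. Of 28 counted genes of cholesterol and fatty acid synthesis 21 were below 0, with a median of -0.22, effects of 0.23 in WT and -0.03 in KO, and none past 2-fold. The median was -0.09 when all probe sets were averaged. Insig1, a sterol sensor that holds back SREBP, measured 1432 (control) and 2079 (ALDO) in WT and 1768 and 1382 in KO. Its difference of -0.89 came with KO control and WT ALDO above the other arrays. Lss (lanosterol synthase) had -0.78, whereas Dhcr7, the last enzyme of cholesterol synthesis, had 0.65. Of 13 clock genes 11 were below 0 with a median of -0.19, but the median was -0.05 in the next brightest probe sets. WT ALDO was alone on top in 4 of the 13, against 5.17% of all counted genes. The time of day at which tissue was taken is not stated in the sources used here. Igfbp1, a binding protein for insulin-like growth factors that fasting and FOXO factors induce, measured 1213 and 2016 in WT and 1185 and 725 in KO. The controls were level and the ALDO arrays lay on opposite sides of them, for a difference of -1.42. Foxo3, a forkhead factor of fasting and stress, had effects of 0.80 in WT and -0.37 in KO (difference -1.17), but a second probe set gave -0.26.

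Ang encodes angiogenin, a secreted ribonuclease, and measured 440 in control and 1999 under ALDO in WT, and 611 and 789 in KO. WT ALDO stood alone, the difference was -1.78, and further probe sets gave -0.88 and -0.79. Rnase4, a ribonuclease gene transcribed from the same promoters, had WT ALDO alone on top as well (1126 and 3129 in WT and 861 and 1556 in KO; difference -0.62; named after its value was seen). Stc1 (stanniocalcin 1, a calcium and phosphate regulating hormone) had effects of 1.52 in WT and 0.56 in KO, with WT ALDO alone on top. Sult1c2, a sulfotransferase, measured 2884 and 5093 in WT and 3289 and 2740 in KO and differed by -1.08, again with WT ALDO alone.

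A group of transport and metabolism genes was set by WT control. Ugt2b38, a glucuronosyltransferase, measured 26588 (control) and 5543 (ALDO) in WT and 6569 and 4512 in KO. WT control stood alone, both ALDO effects were negative (-2.26 in WT and -0.54 in KO), and the difference was 1.72. Cyp2d12, a cytochrome P450, had 5354 and 2532 in WT and 1702 and 1849 in KO (difference 1.19). Slc22a7, an organic anion transporter, had 2052 and 985 in WT and 594 and 581 in KO (difference 1.02; named after its value was seen). Angptl7, a secreted angiopoietin-like protein, measured 723 in control and 259 under ALDO in WT, and 257 and 419 in KO, and its effects of -1.43 and 0.68 had opposite signs. Nbn, which encodes nibrin of the DNA break repair complex, also had WT control on top, with a difference of 1.37. Over the whole list of xenobiotic metabolism and organic ion transport the median was -0.11 and 15 of 35 were above 0, so the list as a whole did not follow them.

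WT control was the lowest array and stood alone in 7 genes with a lower effect in KO. Birc3, an inhibitor of apoptosis downstream of NF-kB, measured 368 (control) and 771 (ALDO) in WT and 1123 and 963 in KO. The other 3 arrays were closer to each other, and the difference was -1.25, but the mean of all its probe sets gave 0.19. Sult1a1, a sulfotransferase, had 477 and 840 in WT and 1108 and 815 in KO (difference -1.23). Cox6b2 and Srbd1 had differences of -1.19 and -1.15, and a second Srbd1 probe set gave -0.10. H2bc22, a histone gene, had -1.17. Rdh16f2, a retinol dehydrogenase, had effects of 1.76 in WT and 0.72 in KO from a low WT control.

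S100a8 had the largest difference of the counted genes and was set by WT ALDO alone. It encodes a subunit of calprotectin, the calcium-binding protein of neutrophils and monocytes. Its intensity was 383 in control and 34.5 under ALDO in WT, and 462 and 533 in KO. The other arrays were within a narrow range and WT ALDO was far below them and below the intensity limit, so the effects were -2.98 in WT and 0.20 in KO (difference 3.18). The gene of its partner subunit, S100a9, was below the limit by its mean and had the same arrangement (320 and 4.50 in WT and 468 and 453 in KO, the WT ALDO value being under the 16 added before the log, so no difference is given). S100a8 was the 1 counted member of 14 neutrophil markers, and 11 others were dim, and the part of neutrophil number in the difference was not tested. Macrophage markers did not move with it: 10 of 19 were above 0 with a median of 0.02 (-0.25 in the next brightest probe sets), although KO exceeded WT by a median of 1.16 in the controls and 1.04 under ALDO. Wfdc17, a secreted protein of activated macrophages, was an exception at 1.30 (169 and 75.9 in WT and 569 and 698 in KO), with both KO arrays on top. Cd74, the invariant chain of MHC class II, and C1qb of complement were at -0.58 and -0.51.

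Few genes were set by KO control. Ugt2a3, another glucuronosyltransferase, measured 302 (control) and 393 (ALDO) in WT and 612 and 261 in KO. KO control stood above the rest, and the difference was -1.54. C8g, a subunit of the complement membrane attack complex, had 1189 and 1304 in WT and 2033 and 1094 in KO (difference -1.02), and Dzip1, a cilium protein gene, -1.06. Ptgds, the prostaglandin D synthase, had 2017 and 1672 in WT and 8819 and 3744 in KO, so its ALDO effect was -0.27 in WT and -1.23 in KO. As the lowest array KO control carried Fgfbp1 (570 and 659 in WT and 306 and 797 in KO; difference 1.13), which encodes a carrier that releases fibroblast growth factors, and Ifitm1 (1.04), an interferon-inducible membrane protein. With KO ALDO lowest and alone, Smlr1 measured 944 and 900 in WT and 875 and 372 in KO (difference -1.13), and Mrnip differed by -1.02.

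In the natriuretic peptide and cGMP list 5 of 14 counted members were above 0, the median was -0.02, and none passed 2-fold. Npr2, the receptor of C-type peptide, and Npr3, the clearance receptor, were at 0.25 and -0.04. Nppb, the gene of B-type peptide, was below the limit with 0.33. The atrial peptide gene Nppa was below the limit too (42.4 and 3.76 in WT and 50.1 and 42.2 in KO), with WT ALDO lowest and under the 16 added before the log, so no difference is given. The downstream genes with the highest values were Gucy1a2, a subunit of the nitric oxide receptor, at 0.88 and Prkg1, the cGMP-dependent kinase, at 0.57, both with KO ALDO alone on top.

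Corticosteroid receptors and targets had a lower ALDO effect in KO in 16 of 22 counted members, with a median of -0.28 (-0.18 with all probe sets averaged) and median effects of 0.38 in WT and 0.21 in KO. The KO minus WT median was 0.42 in the controls and 0.06 under ALDO, so the genotypes differed mainly in the controls. WT control was the lowest and alone in 5 of the 22 (5.55% of all counted genes). WT ALDO was the highest and alone in 3 (5.17%). The aldosterone-induced kinase Sgk1 had nearly equal effects, 0.43 in WT and 0.38 in KO (named after its value was seen). Hsd11b1, which regenerates active glucocorticoid, measured 2031 in control and 1764 under ALDO in WT, and 1002 and 1519 in KO. KO control stood alone at the bottom, and the difference was 0.80. Scnn1a and Scnn1b, which encode subunits of the epithelial sodium channel, had differences of opposite sign, 0.59 and -0.75. Wnk4, a kinase that controls sodium chloride transport, measured 2288 and 2796 in WT and 3309 and 1951 in KO and differed by -1.04. Over sodium and potassium transport genes the median was -0.09 with 6 of 20 above 0. Renin-angiotensin genes had a median of 0.09, with 7 of 9 above 0 and none beyond 0.5.

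Distal nephron and collecting duct markers, which contain several of these transporters, had a median of -0.16 with 6 of 22 above 0. Aqp4, a water channel of the collecting duct, measured 189 (control) and 339 (ALDO) in WT and 467 and 285 in KO. KO control was the highest and WT control the lowest, and the effects of 0.79 and -0.68 had opposite signs (difference -1.47). Summed intensities of the 22 markers were 102700 and 117200 in WT and 113200 and 125600 in KO.

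Podocyte markers had 19 of 22 above 0 with a median of 0.20, which was -0.02 in the next brightest probe sets, and their summed intensities were 60760 and 60000 in WT and 60960 and 66820 in KO. Rab3b, a vesicle GTPase of podocytes, was the member past 2-fold (502 and 509 in WT and 351 and 777 in KO; difference 1.09; KO ALDO alone on top), and Tcf21, a podocyte and mesenchymal transcription factor, was at 0.58. Parietal epithelial markers had 5 of 7 above 0 and a median of 0.26 (0.13 with all probe sets averaged), and none was past 0.5 in size. Endothelial markers had 12 of 20 above 0 and a median of 0.08 (-0.17 in the next brightest probe sets), with Sost (effects of 1.24 in WT and 2.24 in KO) and Cd34 (difference 0.59) the highest. Mesangial markers had 9 of 14 above 0 and a median of 0.18, with Fhl2 at 0.51. Basement membrane genes had a median of 0.05 with 12 of 20 above 0, and Nid2 (nidogen 2) at 0.65 was the highest.

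Several other processes were near the median of all genes. For interferon-stimulated genes the median was -0.03 and 16 of 35 were above 0, from Ifi27l2a at -0.79 and Gbp2 at -0.68 to Ifit1 at 0.59 and Usp18 at 0.80. Cell cycle genes had a median of 0.00, with the replication helicase genes Mcm2 and Mcm4 at 0.61 and 0.64. Among p53 targets the lowest were Sesn2 at -0.78 and Fas at -0.61, and Plk2, a polo-like kinase, was at 0.56. Vasoactive and coagulation genes had a median of 0.06 with 13 of 23 above 0 (-0.11 in the next brightest probe sets), and Kng1 (kininogen) at 0.78 and Ece1 (endothelin converting enzyme) at 0.69 were the highest. Inflammatory cytokine, chemokine and adhesion genes were somewhat higher, with 13 of 18 above 0 and a median of 0.21, which was 0.03 in the brightest 25% of genes. Tnfaip3, which encodes the NF-kB inhibitor A20, and Tnfaip2 were the highest at 0.68 and 0.64, both with KO ALDO alone on top.

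**Figure D5:**
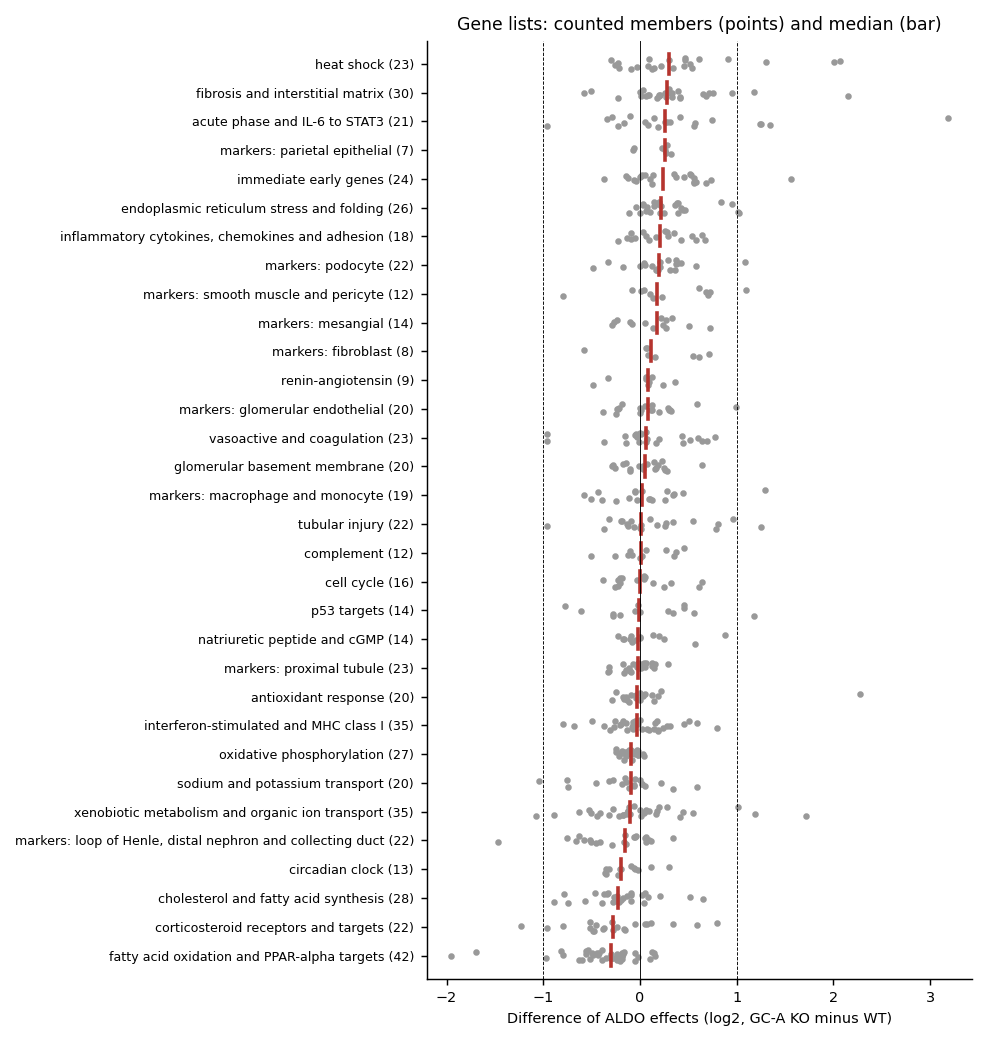
Difference of ALDO effects (x axis, log2, GC-A KO minus WT) for the counted members (grey points) of each list with 5 or more (y axis, number in brackets); red bars are medians and dashed lines mark 2-fold. Medians run from -0.30 for fatty acid oxidation to 0.30 for heat shock, and few points lie beyond the dashed lines.

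The remaining genes with the largest differences had mixed roles. A higher effect in KO was found for Sgip1, an endocytic adaptor, at 1.46, Nol6, a nucleolar protein, at 1.45, Jpt1 at 1.32, the Mediator subunit Med18 at 1.32 and the ubiquitin ligase Uhrf2 at 1.31. Jpt1 measured 1091 in control and 342 under ALDO in WT, and 706 and 569 in KO, both ALDO arrays being below both controls, and its second probe set gave 0.62. Kynu, an enzyme of tryptophan breakdown, had effects of 0.54 in WT and 1.68 in KO and 2 control values under the intensity limit. A lower effect in KO was found for St7 and the chromatin remodeller Chd1, each with KO control and WT ALDO above the other arrays and differences of -1.47 and -1.45. The second Chd1 probe set gave -0.25. Aacs, which activates acetoacetate for lipid synthesis, measured 1682 and 2497 in WT and 1984 and 1207 in KO, a difference of -1.28, and -0.80 in a second probe set. Sgtb, a co-chaperone, was at -1.11 with WT ALDO alone on top.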

How the data were processed

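The 4 arrays were grouped by sample title. The authors deposited linear intensities per probe set, made with Affymetrix Expression Console per the submitters' processing notes. The sources used here give no version, algorithm or detection calls. In the deposited values the mean after leaving out the lowest and highest 2% was 500.003 on each array, which would hide a change shared by all transcripts. Of 45101 probe sets, 64 were controls, 34945 had 1 gene symbol in the platform annotation, 932 had several and 9160 were unnamed, and 34741 were found by Entrez number in a RefSeq table (GRCm38.p6), with 0 symbols changed. Intensities were taken as log2(intensity + 16), which understates the change of dim genes. Calculations used Python 3.11.15 with numpy 2.4.6 and pandas 2.3.3, and were tested on simulated data. The number of arrays limits the precision, and no replicate error exists.

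Genes named were the 15 highest and 15 lowest differences and up to 5 per pattern and array, leaving out clone names and genes with a probe set of opposite sign, and, without these exceptions, the 2 highest and 2 lowest members of 0.5 or more in size for each of 35 lists; others are said to have been chosen after their values were seen. Lists and the comparison were chosen with earlier results of these data known. Medians of lists are descriptions beside those of all counted genes. Alternatives were pseudocounts of 1 and 64, quantile normalization, median and spike-in centring, no filter, the brightest 25% of genes, the mean of all probe sets and the next brightest probe set.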

Additional observations from a re-analysis of the deposited data

Results flagged for a closer look

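In 14 of the 84 genes past 2-fold the ALDO effect had opposite signs in the 2 genotypes, each effect being 0.5 or more in size. Opposite effects of that size differ by 2-fold or more by definition, and these 14 are all such genes among those counted (0.154%). With 1 array per group the difference was not tested. Effects were negative in WT and positive in KO for Hmox1 (difference 2.28), Col6a2 (2.15), Angptl7 (2.10), Hspa1a (2.07), Hspa1b (2.01), Sgip1 (1.46), Nol6 (1.45), Polr3k (1.40) and Dhx8 (1.19). They were positive in WT and negative in KO for Aqp4 (-1.47), St7 (-1.47), Chd1 (-1.45), Igfbp1 (-1.42) and Aacs (-1.28).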

How the results depend on the processing

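With 1 array per group no array could be left out, and no paired analysis was possible because no test was run. Without a filter on low values 1068 genes were higher and 936 lower in KO, in the brightest 25% 12 and 9, after averaging all probe sets 83 and 50, and with the next brightest probe set 19 and 6. Of the 84 genes, 76 were past 2-fold under quantile normalization, 78 under median centring, 84 under spike-in centring and 59 with a pseudocount of 64. Spike-in centring used the median spike of each array and moved the median difference over counted genes only from 0.00381 to 0.0137. It therefore did not remove the median difference of 0.13 over spiked-in probe sets and is no check on it. With all probe sets averaged 54 of 73 measured remained past 2-fold, and in the next brightest probe set 2 of 18. Signs turned in the next brightest probe set for Bcl10 (-0.14), Cyp2j6 (-0.06), Pom121 (-0.08), Socs3 (-0.25) and Tatdn1 (0.07), and in the mean of all probe sets for Birc3 (0.19) and Polr3k (-0.17). List medians also turned in the next brightest probe set for acute phase (-0.16), podocyte (-0.02), glomerular endothelial (-0.17), macrophage (-0.25) and vasoactive (-0.11) genes, and in the mean of all probe sets for natriuretic peptide genes (0.04). The cause was not tested. The median for fatty acid oxidation ranged from -0.34 to -0.28 over the alternatives, that for fibrosis from 0.22 to 0.29 and that for heat shock from 0.20 to 0.33. Wider ranges were found for immediate early genes (0.08 to 0.56), inflammatory genes (0.03 to 0.31), fibroblast markers (0.08 to 0.54), smooth muscle markers (0.13 to 0.40), parietal epithelial markers (0.13 to 0.27), cholesterol synthesis (-0.25 to -0.09), clock genes (-0.27 to -0.05) and corticosteroid targets (-0.31 to -0.18). Medians near 0 for tubular injury, complement, p53 targets, proximal tubule and macrophage markers took the other sign under at least 1 scaling.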

Other observations

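Among genes below the intensity limit, which belong to no count, Havcr1 (the tubular injury receptor KIM-1) measured 39.3 (control) and 70.1 (ALDO) in WT and 308 and 1328 in KO, with effects of 0.64 and 2.05. Of 9 dim macrophage markers, Adgre1 and Cd68 had differences of 0.27 and 0.80, and the others are not given here. Havcr1, Adgre1 and Cd68 were named after their values were seen.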
